A study of Mus musculus with 4 samples.

Results

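Loss of TLR3 was examined in irradiated mouse small intestine by setting 1 miRNA array of Tlr3-/- mice at 6 hr after gamma-irradiation of the whole body with 10 Gy against 1 array of Tlr3+/+ mice treated in the same way. Of 1096 mouse miRNA probes, 118 were bright, meaning that their raw intensity passed 3 times the detection threshold (the mean of the blank spots plus 2 SD) on at least 1 of these arrays. These limits were 87.6 in Tlr3-/- and 78.2 in Tlr3+/+. Of the 118 bright miRNAs, 104 passed on both arrays, 1 in Tlr3-/- only and 13 in Tlr3+/+ only, and the other 978 probes were not members. The study held 4 arrays, namely irradiated Tlr3-/- and Tlr3+/+ intestine at 6 hr and non-treated Tlr3-/- and Tlr3+/+ intestine at 0 hr. Each array carried total RNA pooled from 3 mice, labelled in 1 colour, so each group had 1 sample and no difference could be tested. Precision is limited by the number of arrays. By the names of the deposited arrays, the irradiated samples lay on different slides and the non-treated ones shared another slide, so slide and genotype cannot be told apart at 6 hr. The sources used here do not give strain, age or sex of the mice or the Tlr3 allele. No probe of the array reads Tlr3 mRNA, so nothing on it checks the genotype labels.

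TLR3 is an endosomal receptor for double-stranded RNA that signals through the adaptor TRIF to NF-kB and interferon regulatory factors. In the small intestine it is known from mouse studies of radiation injury, where RNA from dying crypt cells can engage it. A miRNA is a short RNA that guides Argonaute to messenger RNAs, mostly by pairing of its seed, bases 2 to 8, so miRNAs with the same seed share many targets. A miRNA hairpin usually leaves 1 abundant strand, and the array marks the other, star strand with an asterisk.

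The mature sequences of the miRNAs that stood lowest in irradiated Tlr3-/- intestine are shown first, because many of them are rich in G and C. Sequences are RefSeq's for the mouse build GRCm38.p6, written 5′ to 3′ with the seed in capitals, and where a miRNA has several genes the position of 1 is given. Of the 118 bright miRNAs, 95 matched a RefSeq mature sequence. The G + C content of those below was 100% in miR-5126, 94.7% in miR-2861, 84.0% in miR-3077*, 81.8% in miR-762 and miR-149*, 70.8% in miR-326*, 66.7% in miR-211* and 62.5% in miR-92b*. It was 57.1% in miR-3968, 45.5% in miR-494 and 36.4% in miR-451, which are also among the lowest. Of the 12 lowest miRNAs 10 matched a sequence and all 10 are shown, with miR-2861, which stood only 20th from the low end, added as the neighbour of another low miRNA.
miR-762: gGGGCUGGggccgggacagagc (chr7:127708534-127708555, plus strand)
miR-92b*: aGGGACGGgacguggugcaguguu (chr3:89227165-89227188, minus strand)
miR-149*: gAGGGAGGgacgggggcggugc (chr1:92850421-92850442, plus strand)
miR-326*: gGGGGCAGggccuuugugaaggcg (chr7:99552288-99552311, plus strand)
miR-5126: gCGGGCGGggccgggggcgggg (chr1:84695890-84695911, plus strand)
miR-211*: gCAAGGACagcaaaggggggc (chr7:64205868-64205888, plus strand)
miR-3077*: cUGCGGACgggugggcgggcaggcc (chr14:57798424-57798448, plus strand)
miR-3968: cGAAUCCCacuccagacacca (chr11:115447969-115447989, minus strand)
miR-2861: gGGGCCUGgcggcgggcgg (chr2:32712819-32712837, minus strand)
miR-494: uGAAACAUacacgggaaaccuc (chr12:109715367-109715388, plus strand)
miR-451: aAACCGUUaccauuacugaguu (chr11:78073186-78073207, plus strand)

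Those that stood highest included several families with a shared seed, and these are shown for that reason. Seed GAGGUAG is that of let-7, AGCAGCA that of miR-15a, miR-15b and miR-16, GUAAACA that of miR-30 and UCAAGUA that of miR-26. Of the 12 highest miRNAs 10 matched a sequence, and their G + C content ranged between 36.4% and 45.5%.
miR-26a: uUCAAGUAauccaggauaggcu (chr9:119031811-119031832, plus strand)
miR-26b: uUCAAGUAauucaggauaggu (chr1:74394324-74394344, plus strand)
let-7b: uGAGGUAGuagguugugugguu (chr15:85707325-85707346, plus strand)
let-7g: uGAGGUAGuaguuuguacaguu (chr9:106178846-106178867, plus strand)
let-7c: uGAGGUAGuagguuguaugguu (chr15:85706616-85706637, plus strand)
miR-29a: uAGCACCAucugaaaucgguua (chr6:31062673-31062694, minus strand)
miR-21: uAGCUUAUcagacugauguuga (chr11:86584120-86584141, minus strand)
miR-203: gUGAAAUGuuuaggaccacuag (chr12:112130927-112130948, plus strand)
miR-15a: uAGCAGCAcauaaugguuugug (chr14:61632075-61632096, minus strand)
miR-15b: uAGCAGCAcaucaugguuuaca (chr3:69009775-69009796, plus strand)
miR-16: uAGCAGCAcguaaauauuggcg (chr3:69009918-69009939, plus strand)
miR-30c: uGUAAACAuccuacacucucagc (chr1:23291714-23291736, plus strand)
miR-30a: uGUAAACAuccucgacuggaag (chr1:23272274-23272295, plus strand)

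Values below are raw intensities, in the scanner's own units, and log2 ratios of Tlr3-/- over Tlr3+/+ computed after background correction and quantile normalization, so a negative ratio means a lower signal in Tlr3-/-. After quantile normalization, probes that hold the same rank on 2 arrays have a ratio of exactly 0. For the miRNAs named at the ends of the distribution the range over 6 other scalings is given as well. Raw intensities of bright probes reached 7057 in irradiated Tlr3-/- and 7193 in irradiated Tlr3+/+, while the blanks averaged 27.3 and 24.7. Spike controls, the same RNA added to every sample, had log2 ratios of raw intensity of 0.10 and 0.05. Over their 8 repeated spots per array the pooled SD was 0.105 (log2). For the difference of 2 spots 2 SD is then 0.296, a spread within arrays that leaves out mice, pools and slides. The spots of Spike Control 1 spread most on the irradiated Tlr3+/+ array, with a raw SD of 528 and a mean of 3652. On the irradiated Tlr3-/- array these were 161 and 3906, so 0.296 may be too small for the Tlr3+/+ array.

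The irradiated genotypes differed little at most bright miRNAs, and the differences that stood out were mostly lower signals in Tlr3-/-. No bright miRNA differed 2-fold after the main processing, whose offset shrinks ratios, and in the authors' normalized values only miR-451 did (log2 ratio -1.04). At 1.5-fold, 0 of 118 were higher in Tlr3-/- and 3 were lower, while over all 645 miRNAs detected on both arrays the share called was 0% higher and 0.465% lower. At a lower limit of 0.322 in log2 ratio, 7 of the 118 were higher and 15 lower, while over all 645 the share called was 1.09% higher and 2.48% (16 miRNAs) lower. The split depended on the scaling, since scaling to the median gave 19 higher and 15 lower at that limit, cyclic loess 3 and 20, and the authors' normalized values 5 and 33. Of the 15 that were lower, 10 passed the 0.322 limit in all 6 other scalings, but of the 7 that were higher only miR-26a and miR-21 passed it in all 6. The 15 and the 10 both include miR-451 and miR-671-5p, which were bright in Tlr3+/+ only, so their direction came with the brightness limit. The other 13 lower ones and all 7 higher ones were bright on both arrays. Bright miRNAs were drawn from the top of the signal range, where ratios shrink less, so a larger share past a fold limit than among all detected miRNAs is no property of the group.

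The median log2 ratio of the 118 was 0.02, against 0.007 over the 645, and 61 ratios lay above 0, 50 below 0 and 7 at 0. Among the 104 bright on both arrays the median was 0.07, with 60 above and 37 below 0. Among the 118, 79 (66.9%) lay within 0.25 of 0. The limit of 0.296, taken from the much brighter spike spots, was exceeded by 29 miRNAs, of which 9 were higher and 20 lower in Tlr3-/-. In all 10 settings tried, 91 miRNAs kept the sign of their ratio, 50 of them above and 41 below 0. The plot of raw intensities shows this as a narrow band with its stragglers on the Tlr3+/+ side.

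**Figure D1:**
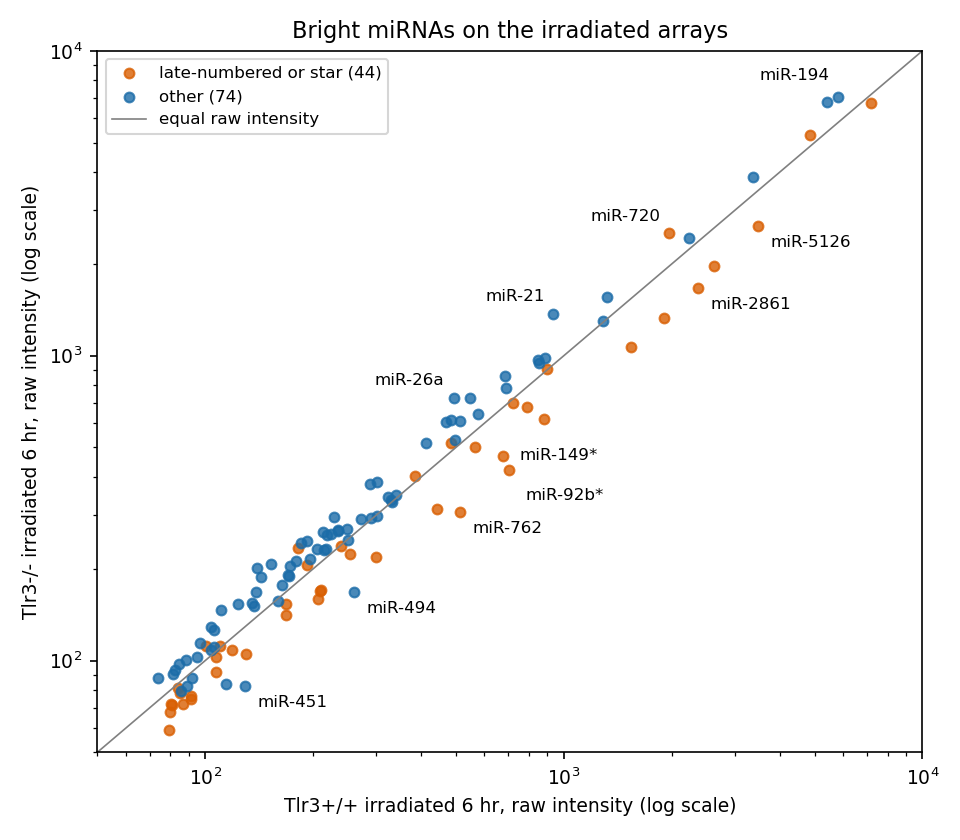
Raw intensity of the 118 bright miRNAs on the irradiated Tlr3-/- array (vertical, log scale) against the irradiated Tlr3+/+ array (horizontal, log scale), 1 point per miRNA, with late-numbered and star miRNAs in orange and the others in blue. Most orange points lie below the line of equal intensity, among them miR-762 (308 in Tlr3-/- and 514 in Tlr3+/+), and most blue points lie on or above it.

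The 3 miRNAs at least 1.5-fold lower in irradiated Tlr3-/- intestine were miR-762, miR-92b* and miR-494. miR-762 is a G-rich miRNA of chromosome 7. At 6 hr miR-762 read 308 in Tlr3-/- and 514 in Tlr3+/+, and at 0 hr 236 in Tlr3-/- and 196 in Tlr3+/+. The irradiated Tlr3+/+ array was the high one among the 4, the ratio at 6 hr was -0.82 (1.77-fold lower in Tlr3-/-), and it ranged between -0.93 and -0.68 in the other scalings. The star strand of miR-92b, a relative of the miR-17~92 cluster, read 421 in Tlr3-/- and 705 in Tlr3+/+ at 6 hr and 168 in Tlr3-/- and 128 in Tlr3+/+ at 0 hr. Both irradiated arrays were above both non-treated ones, and the ratio of miR-92b* at 6 hr was -0.74 (1.67-fold lower, range -0.92 to -0.66). These 2 passed 1.5-fold in all 6 other scalings, and miR-494 did in 4. miR-494, made from the large imprinted miRNA cluster of mouse chromosome 12, read 168 in Tlr3-/- and 260.1 in Tlr3+/+ at 6 hr and 139 in Tlr3-/- and 158 in Tlr3+/+ at 0 hr. Its Tlr3-/- value was the lower one at both times, with ratios of -0.69 at 6 hr (range -0.87 to -0.56) and -0.30 at 0 hr.

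The next ones down were mostly star strands and late-numbered miRNAs, of which several lie in introns of known genes. miR-149*, from an intron of the proteoglycan gene Gpc1, read 470.3 in Tlr3-/- and 676 in Tlr3+/+ at 6 hr and 396 in Tlr3-/- and 364 in Tlr3+/+ at 0 hr, with a ratio of -0.56 at 6 hr (range -0.68 to -0.45). miR-326*, from an intron of the arrestin gene Arrb1, read 622 in Tlr3-/- and 879 in Tlr3+/+ at 6 hr and 347 in Tlr3-/- and 233 in Tlr3+/+ at 0 hr. Its order turned between the times, with Tlr3-/- lower at 6 hr (-0.53, range -0.65 to -0.46) and higher at 0 hr (0.59). miR-211*, from an intron of the ion channel gene Trpm1, showed the same turn, with 219 in Tlr3-/- and 299 in Tlr3+/+ at 6 hr and 175 in Tlr3-/- and 125.9 in Tlr3+/+ at 0 hr. Its ratios were -0.46 at 6 hr (range -0.64 to -0.40) and 0.36 at 0 hr. miR-3077* did so too, reading 159.8 in Tlr3-/- and 206.1 in Tlr3+/+ at 6 hr and 116 in Tlr3-/- and 81.5 in Tlr3+/+ at 0 hr, with ratios of -0.38 (range -0.58 to -0.32) and 0.44.

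Among the brightest low miRNAs, miR-5126 read 2660.3 in Tlr3-/- and 3469 in Tlr3+/+ at 6 hr and 1377 in Tlr3-/- and 1257 in Tlr3+/+ at 0 hr. It was bright on every array and about equal in the genotypes at 0 hr, where its ratio was 0, against -0.48 at 6 hr (range -0.52 to -0.29). miR-2137 read 1972 in Tlr3-/- and 2629.8 in Tlr3+/+ at 6 hr and 939.9 in Tlr3-/- and 727 in Tlr3+/+ at 0 hr, and its ratio was -0.35 at 6 hr (range -0.55 to -0.29) and 0.44 at 0 hr. miR-5109 read 1064 in Tlr3-/- and 1543 in Tlr3+/+ at 6 hr and 716 in Tlr3-/- and 765 in Tlr3+/+ at 0 hr, and its ratio of -0.35 was larger in size in every other scaling (-0.68 to -0.50). The same held for the neighbours miR-2861 and miR-3960, whose genes lie 11 bases apart on chromosome 2 and which are known from mouse bone, where they promote osteoblast formation. miR-2861 read 1663 in Tlr3-/- and 2369 in Tlr3+/+ at 6 hr and 653 in Tlr3-/- and 514 in Tlr3+/+ at 0 hr, and miR-3960 read 1330.4 in Tlr3-/- and 1902 in Tlr3+/+ at 6 hr and 918 in Tlr3-/- and 662 in Tlr3+/+ at 0 hr. Their ratios at 6 hr were -0.30 (range -0.65 to -0.40) and -0.32 (range -0.65 to -0.37), so the neighbours stood at nearly the same place.

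Some of the low ratios depended on the scaling or on a dim array. miR-328* read 503 in Tlr3-/- and 565 in Tlr3+/+ at 6 hr and 314 in Tlr3-/- and 274 in Tlr3+/+ at 0 hr, and its ratio of -0.38 was nearer to 0 in all 6 other scalings (-0.31 to -0.14). For miR-3968, the brightest probe of irradiated Tlr3+/+ intestine, the readings were 6723 in Tlr3-/- and 7193 in Tlr3+/+ at 6 hr and 7256 in Tlr3-/- and 8182 in Tlr3+/+ at 0 hr, and its ratio of -0.37 ranged between -0.25 and -0.07 in the other scalings. Neither passed the 0.322 limit in any of the 6 others. miR-671-5p, which passed the brightness limit in Tlr3+/+ only, read 83.9 in Tlr3-/- and 114 in Tlr3+/+ at 6 hr and 77.8 in Tlr3-/- and 63.8 in Tlr3+/+ at 0 hr, with a ratio of -0.34 (range -0.79 to -0.35).

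miR-451 is the miRNA of red blood cells, processed by Argonaute rather than Dicer. It read 82.7 in Tlr3-/- and 129 in Tlr3+/+ at 6 hr and 171 in Tlr3-/- and 42.3 in Tlr3+/+ at 0 hr. In Tlr3-/- the non-treated array was the higher one, in Tlr3+/+ the irradiated one, and the ratio was -0.49 at 6 hr (range -1.04 to -0.53) and 1.55 at 0 hr. It passed the brightness limit at 6 hr in Tlr3+/+ only. The other red cell markers, miR-144 and the miR-486/miR-3107 probe, read 29.5 and 38.5 in irradiated Tlr3-/- and 25.2 and 34.4 in irradiated Tlr3+/+, near the detection thresholds of 29.2 and 26.1. The share of blood in each sample was not tested. In pooled tissue RNA, fewer cells of a type and less RNA per cell cannot be told apart, here or in any list below.

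On the high side no miRNA reached 1.5-fold, and the leading ones were miRNAs abundant in many tissues. miR-26a, which restrains growth and represses Ezh2, read 727 in Tlr3-/- and 493 in Tlr3+/+ at 6 hr and 595 in Tlr3-/- and 457 in Tlr3+/+ at 0 hr. Tlr3-/- was above Tlr3+/+ at both times, with ratios of 0.56 at 6 hr (range 0.40 to 0.56) and 0.16 at 0 hr. miR-21, which represses Pdcd4 and is raised in inflamed and growing tissue, read 1371 in Tlr3-/- and 930.5 in Tlr3+/+ at 6 hr and 1183 in Tlr3-/- and 1365 in Tlr3+/+ at 0 hr. Irradiated Tlr3+/+ was the low one of the 4, and the ratio was 0.35 at 6 hr (range 0.40 to 0.57) and -0.27 at 0 hr. miR-203, which restrains the stem cell factor p63 in mouse skin, had the same order with 201 in Tlr3-/- and 139.7 in Tlr3+/+ at 6 hr and 177 in Tlr3-/- and 191 in Tlr3+/+ at 0 hr. Its ratios were 0.31 at 6 hr (range 0.33 to 0.47) and -0.17 at 0 hr.

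Other high ratios were less steady. miR-720, whose sequence is now regarded as a fragment of a transfer RNA, read 2521 in Tlr3-/- and 1970.5 in Tlr3+/+ at 6 hr and 2131 in Tlr3-/- and 1738 in Tlr3+/+ at 0 hr, and its ratio of 0.52 ranged between 0.21 and 0.50 in the other scalings. miR-690 read 3857 in Tlr3-/- and 3364 in Tlr3+/+ at 6 hr and 3521 in Tlr3-/- and 3866 in Tlr3+/+ at 0 hr, and its ratio of 0.48 was only 0.05 to 0.29 in them. Both stood above 0 in every scaling at 6 hr. At 0 hr both had ratios of 0 through equal ranks, with 0 to 0.30 for miR-720 and -0.39 to 0 for miR-690 in the other scalings. miR-29a, which represses collagens and Mcl1, read 616 in Tlr3-/- and 485.7 in Tlr3+/+ at 6 hr and 661 in Tlr3-/- and 521 in Tlr3+/+ at 0 hr, higher in Tlr3-/- at both times (0.38 at 6 hr, range 0.19 to 0.35, and 0.23 at 0 hr). miR-145, a smooth muscle miRNA, read 1552 in Tlr3-/- and 1321 in Tlr3+/+ at 6 hr and 1542 in Tlr3-/- and 1234 in Tlr3+/+ at 0 hr, with ratios of 0.32 (range 0.09 to 0.37) and 0.27, so it too stood higher in Tlr3-/- at both times.

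**Figure D2:**
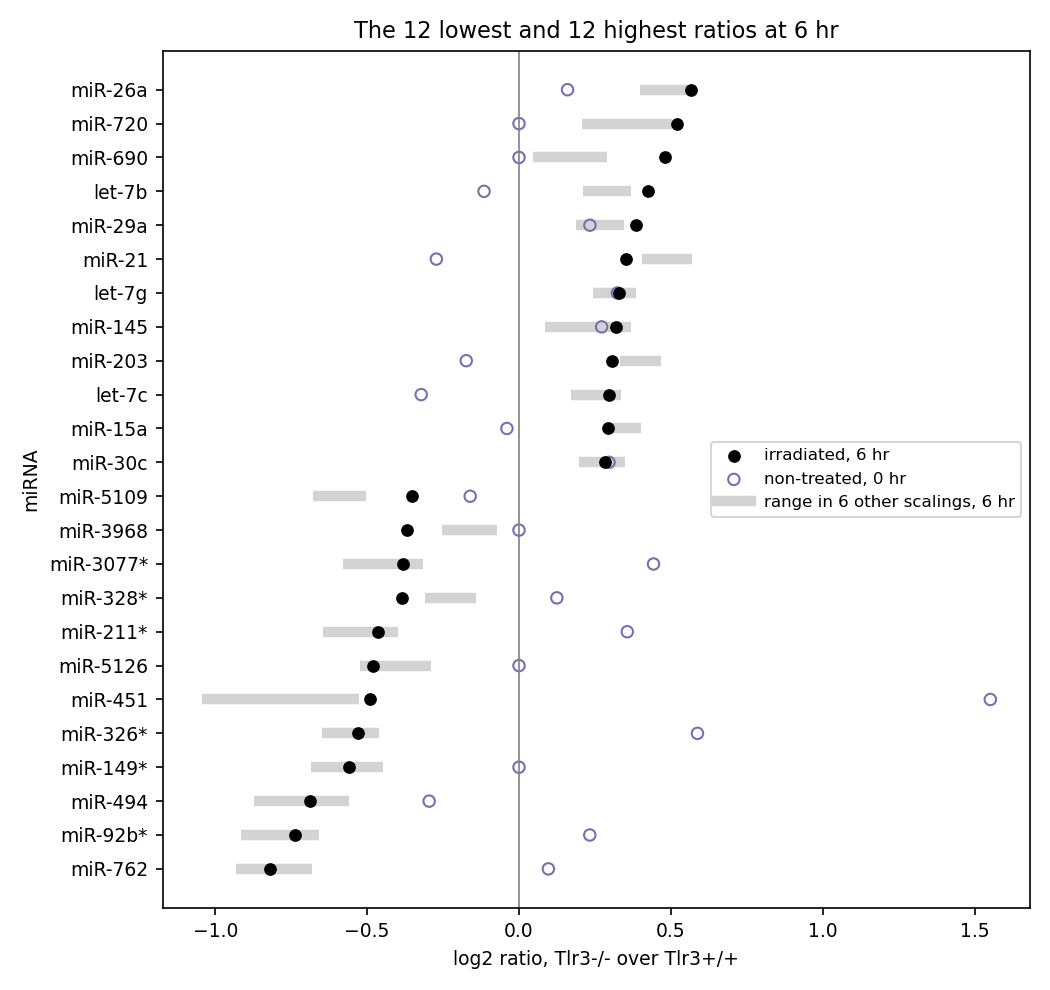
Log2 ratio of Tlr3-/- over Tlr3+/+ (horizontal) for the 12 highest and the 12 lowest bright miRNAs at 6 hr (rows), with filled circles for irradiated intestine at 6 hr, open circles for non-treated intestine at 0 hr and grey bars for the range of the 6 hr ratio in 6 other scalings. No grey bar crosses 0, and many open circles lie on the other side of 0 from the filled ones, as for miR-451 at -0.49 (6 hr) and 1.55 (0 hr). Open circles show the main processing only, and some of them cross 0 in other scalings.

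Several families with a shared seed had every bright member above 0 at 6 hr. All 8 bright let-7 members, which repress Lin28, Hmga2 and Ras genes and mark differentiated tissue, had ratios above 0 at 6 hr. Their median was 0.21 (0.16 to 0.30 in the other scalings, where let-7a alone crossed 0), against 0.12 over those 74 and 0.02 over the 118. At 0 hr 3 were above and 4 below 0, with a median of -0.03. The highest was let-7b, which read 605 in Tlr3-/- and 470.1 in Tlr3+/+ at 6 hr and 567 in Tlr3-/- and 523 in Tlr3+/+ at 0 hr, and the lowest was let-7a, at 981 in Tlr3-/- and 886 in Tlr3+/+ at 6 hr and 1054 in Tlr3-/- and 919 in Tlr3+/+ at 0 hr. The ratios at 6 hr were 0.42 for let-7b (range 0.21 to 0.37) and 0.04 for let-7a (range -0.00051 to 0.17), so the sign of let-7a was not settled. let-7g read 379 in Tlr3-/- and 288 in Tlr3+/+ at 6 hr and 368 in Tlr3-/- and 301 in Tlr3+/+ at 0 hr (0.33 and 0.32), while let-7c read 860.0 in Tlr3-/- and 687 in Tlr3+/+ at 6 hr and 612 in Tlr3-/- and 697 in Tlr3+/+ at 0 hr (0.29 and -0.32). The genotypes thus had the same order at both times for let-7g and opposite orders for let-7c. let-7f, with 729 in Tlr3-/- and 547 in Tlr3+/+ at 6 hr, had a ratio of 0.25. Only let-7b and let-7g passed the 0.322 limit, and let-7 probes can cross-hybridise because members differ by few bases.

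The 5 bright miR-30 members, known for restraining Snai1 and autophagy genes, were all above 0 at 6 hr, with a median of 0.25 (0.20 to 0.34 in the other scalings, where miR-30e alone crossed 0) and of 0.06 at 0 hr. miR-30c read 385 in Tlr3-/- and 302 in Tlr3+/+ at 6 hr and 358 in Tlr3-/- and 287 in Tlr3+/+ at 0 hr, and miR-30a read 243 in Tlr3-/- and 185 in Tlr3+/+ at 6 hr and 191 in Tlr3-/- and 200.4 in Tlr3+/+ at 0 hr. For miR-30c the ratio was about the same at both times (0.28 and 0.30), and for miR-30a it was 0.27 at 6 hr and -0.16 at 0 hr. The weakest, miR-30e, had 0.07 and changed sign among the scalings (-0.03 to 0.10). Of the 74 bright miRNAs neither late-numbered nor star, 56 were above 0 at 6 hr, with a median of 0.12.

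The miR-15/16 seed family, which represses Bcl2 and cyclins, also had all 5 bright members above 0 at 6 hr, with a median of 0.22 (0.23 to 0.34 in the other scalings) and of -0.13 at 0 hr. Above 0 at 6 hr were 56 of the 74 bright miRNAs neither late-numbered nor star, with a median of 0.12. miR-15a read 208 in Tlr3-/- and 153 in Tlr3+/+ at 6 hr and 188 in Tlr3-/- and 182 in Tlr3+/+ at 0 hr, miR-15b 189 in Tlr3-/- and 142.8 in Tlr3+/+ at 6 hr and 163 in Tlr3-/- and 166 in Tlr3+/+ at 0 hr, and miR-16 516 in Tlr3-/- and 414 in Tlr3+/+ at 6 hr and 448 in Tlr3-/- and 459.8 in Tlr3+/+ at 0 hr. In all 3 the irradiated Tlr3+/+ array was the lowest of the 4, and the ratios at 6 hr were 0.29, 0.22 and 0.28. miR-195 read 146.3 in Tlr3-/- and 111 in Tlr3+/+ at 6 hr and 142.8 in Tlr3-/- and 39.6 in Tlr3+/+ at 0 hr, where the non-treated Tlr3+/+ array stood far below the other 3. miR-497, whose gene lies 241 bases from that of miR-195, read 90.2 in Tlr3-/- and 81.4 in Tlr3+/+ at 6 hr and 88.7 in Tlr3-/- and 91.1 in Tlr3+/+ at 0 hr and showed no such gap. The miR-26 family had both members above 0 at 6 hr (median 0.39) and at 0 hr (median 0.20), and miR-26b read 265 in Tlr3-/- and 213 in Tlr3+/+ at 6 hr and 285 in Tlr3-/- and 233 in Tlr3+/+ at 0 hr. In the miR-29 family, miR-29a and miR-29c lay above 0 and miR-29b at 0, with a median of 0.16 at 6 hr and 0.17 at 0 hr.

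Clusters tied to growth stood near 0. Of the 9 bright members of miR-17~92 and its paralogs, which drive proliferation, 4 lay above and 5 below 0, with a median of -0.01 (-0.03 to 0.11 in the other scalings), and at 0 hr 1 lay above and 8 below (median -0.16). miR-20a, the lowest of them, read 249.6 in Tlr3-/- and 249 in Tlr3+/+ at 6 hr and 264 in Tlr3-/- and 264 in Tlr3+/+ at 0 hr, and its ratio at 6 hr was -0.11 (range -0.14 to 0.01). The 5 bright members of miR-23/27/24 had a median of 0 (0 to 0.13 in the other scalings), with miR-27a at -0.08 and miR-23b at 0.14 as its ends. The 4 bright members of the group of miR-10, miR-99, miR-100 and miR-125 lay above 0 (median 0.12), and miR-103 and miR-107, linked to metabolism, had a median of 0.06. The plot of families sets these beside the 118.

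**Figure D3:**
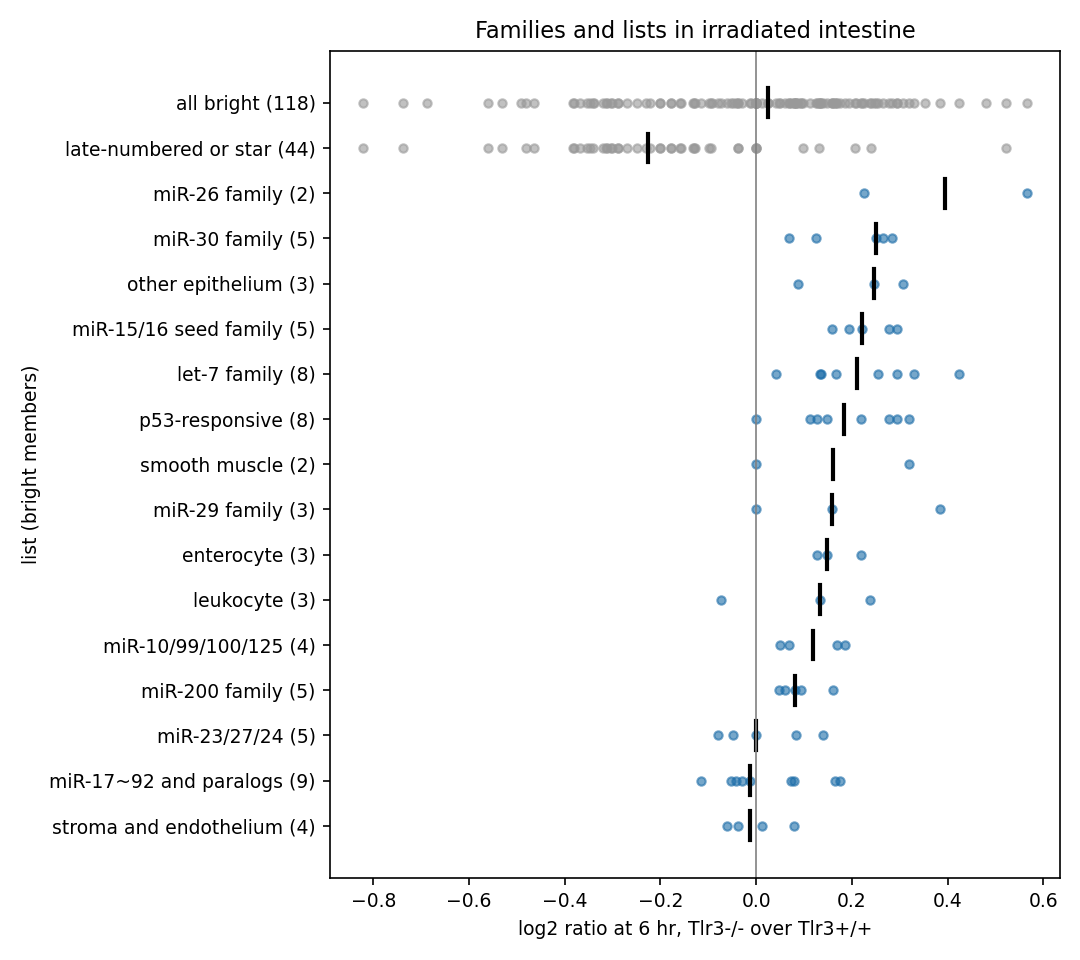
Log2 ratio of Tlr3-/- over Tlr3+/+ at 6 hr (horizontal) for the bright members of each family or list (rows, number of bright members in brackets), 1 point per miRNA and a black bar at the median. The late-numbered or star group lies mostly left of 0 (median -0.23), and the miR-26, miR-30, miR-15/16 and let-7 families lie wholly right of it, though let-7a and miR-30e cross 0 in other scalings. Of the 74 bright miRNAs outside the late-numbered or star group, 56 lie right of 0.

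The tissue label was checked against miRNA markers of cell types. The enterocyte miRNAs miR-194, miR-215 and miR-192 were among the brightest of all, with 7057, 6788 and 2429.9 in irradiated Tlr3-/- and 5822, 5412 and 2233 in irradiated Tlr3+/+, and these miRNAs are known as abundant in small intestinal epithelium. miR-122 of liver read 29.2 in Tlr3-/- and 25.2 in Tlr3+/+, miR-124 of neurons 27.8 and 25.3, miR-206 of skeletal muscle 27.6 and 25.2, and miR-216a and miR-217 of pancreas 28.4 and 28.2 in Tlr3-/- and 25.8 and 26.5 in Tlr3+/+. These lay at about the detection threshold on both arrays. Other markers were detected on both without being bright, namely miR-9 of neurons (30.5 in Tlr3-/- and 26.4 in Tlr3+/+) and, of skeletal muscle, miR-133a (41.9 and 36.4) and miR-133b (46.6 and 44.2). Of the bright probes not tied to a cell type, miR-5100 read 5297 in Tlr3-/- and 4849 in Tlr3+/+ at 6 hr and 5299.5 in Tlr3-/- and 5349.5 in Tlr3+/+ at 0 hr, and its ratio was 0 at both times. All 3 enterocyte miRNAs had ratios above 0 at 6 hr, with a median of 0.15 (0.12 to 0.30 in the other scalings, where miR-192 alone crossed 0). Over the 74 bright miRNAs neither late-numbered nor star, 56 ratios lay above 0, with a median of 0.12. At 0 hr all 3 enterocyte miRNAs had a ratio of 0 because their ranks were equal. Raw values of miR-194, miR-215 and miR-192 there were 6969, 5443 and 2385 in Tlr3-/- and 5941, 5461 and 2224 in Tlr3+/+. Raw miR-194 and miR-192 were thus higher in Tlr3-/- at both times. In the other scalings the 3 ratios at 0 hr were -0.03 to 0.24, -0.26 to 0.0027 and -0.16 to 0.11.

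The miR-200 family, which keeps epithelial cells epithelial by repressing Zeb1 and Zeb2, had all 5 members above 0 at 6 hr and all 5 below 0 at 0 hr, with medians of 0.08 and -0.27. The median at 6 hr ranged between -0.01 and 0.13 in the other scalings, so its side of 0 depended on the scaling. Over the 74 bright miRNAs neither late-numbered nor star the median at 6 hr was 0.12, with 56 above 0. At 0 hr miR-200c reached 0.02 in another scaling and miR-200a, miR-200b and miR-429 came to about 0, so only miR-141 stayed clearly below 0 there. miR-200a read 965 in Tlr3-/- and 845 in Tlr3+/+ at 6 hr and 878 in Tlr3-/- and 884 in Tlr3+/+ at 0 hr, and miR-141 read 343 in Tlr3-/- and 323 in Tlr3+/+ at 6 hr and 279 in Tlr3-/- and 379 in Tlr3+/+ at 0 hr. Of these, miR-141 differed most at 0 hr, where Tlr3-/- was the low one (-0.60, with -0.68 to -0.40 in the other scalings), while for miR-200a the ratio at 0 hr was -0.12 (-0.27 to -0.0026 in them). Other epithelial miRNAs were above 0, with a median of 0.25 over the 3 bright ones, of which miR-148a crossed 0 in other scalings. Among them miR-31, known in mouse for supporting regrowth of the intestinal epithelium after radiation, read 295 in Tlr3-/- and 228 in Tlr3+/+ at 6 hr and 285 in Tlr3-/- and 246 in Tlr3+/+ at 0 hr. Its ratio was 0.25 at 6 hr (range 0.22 to 0.35) and 0.12 at 0 hr, the Tlr3-/- value being the higher at both times.

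Non-epithelial markers gave no common direction. The smooth muscle miRNAs miR-143 and miR-145 had ratios of 0 and 0.32 and a median that crossed 0 in the other scalings (-0.02 to 0.18), and miR-143 read 1303 in Tlr3-/- and 1289 in Tlr3+/+ at 6 hr and 1652 in Tlr3-/- and 1389 in Tlr3+/+ at 0 hr. The 4 bright stromal and endothelial miRNAs had a median of -0.01 (-0.09 to 0.05 in the other scalings), and miR-126-3p, the endothelial one, read 331 in Tlr3-/- and 332 in Tlr3+/+ at 6 hr and 327 in Tlr3-/- and 329 in Tlr3+/+ at 0 hr, nearly the same on all 4 arrays. Of 8 leukocyte miRNAs 3 were bright, with a median of 0.13. Only miR-223 was bright on both arrays. miR-142-5p passed in Tlr3+/+ only and miR-146a in Tlr3-/- only, so their direction is no finding. Among the 3 bright ones, miR-142-5p, found in all blood cells, read 82.6 in Tlr3-/- and 89.1 in Tlr3+/+ at 6 hr and 151 in Tlr3-/- and 112 in Tlr3+/+ at 0 hr, so both irradiated samples were below both non-treated ones. Its ratio at 6 hr was -0.07, while the dim miR-142-3p had 0.20 (62.4 in Tlr3-/- and 48.7 in Tlr3+/+). miR-223 of neutrophils read 100.4 in Tlr3-/- and 88.5 in Tlr3+/+ at 6 hr and 104 in Tlr3-/- and 99.9 in Tlr3+/+ at 0 hr, above the brightness limit on each array by a small margin. The dim miR-150 of lymphocytes read 60.5 in irradiated Tlr3-/- and 45.0 in irradiated Tlr3+/+, and 66.6 and 53.5 in the non-treated samples of the same genotypes.

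Because TLR3 signals to NF-kB, miRNAs of innate immunity were looked at as a list, and 3 of its 8 were bright. miR-146a, which NF-kB induces and which dampens Toll-like receptor signals by repressing Irak1 and Traf6, read 87.6 in Tlr3-/- and 73.9 in Tlr3+/+ at 6 hr and 105 in Tlr3-/- and 87.0 in Tlr3+/+ at 0 hr. It was the only miRNA bright in irradiated Tlr3-/- alone, just over the limit there and just under it in Tlr3+/+, with ratios of 0.24 at 6 hr (range 0.07 to 0.21) and 0.19 at 0 hr. With miR-21 and miR-223 the list had a median of 0.24 at 6 hr, which is the ratio of miR-146a itself and was 0.074 with spike scaling and 0.078 with cyclic loess, and of 0 at 0 hr. Since miR-146a passed the brightness limit through the array where it was high, its direction supports nothing. miR-155, which NF-kB and interferon signals induce, was not bright, with 32.4 in irradiated Tlr3-/- and 27.7 in irradiated Tlr3+/+, and 32.7 and 29.1 in the non-treated samples. Nor were miR-146b, miR-9, miR-132 and miR-147, so 5 of the 8 were too dim to be compared here.

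Since irradiation activates p53, its responsive miRNAs were examined too. Of 12, 8 were bright, 7 lay above 0, 1 at 0 and 0 below, and the median was 0.18 (0.10 to 0.28 in the other scalings). These 8 are among the 74 bright miRNAs neither late-numbered nor star, of which 56 lay above 0, with a median of 0.12. At 0 hr the median of the 8 was 0, but 4 of the 8 had a ratio of 0 there through equal ranks. The list shares miR-192, miR-194, miR-215, miR-15a, miR-16, miR-143, miR-145 and miR-107 with lists above and adds no bright miRNA of its own. miR-34a, the best known p53 target among miRNAs, was dim, with 45.2 in irradiated Tlr3-/- and 34.7 in irradiated Tlr3+/+, and 35.1 and 34.2 in the non-treated samples. The irradiated Tlr3-/- array held the high value of miR-34a, whose ratio at 6 hr was 0.19. The blanks of that array were also the brightest at 27.3, and their part in the value was not tested.

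What the low miRNAs had in common was their class and base composition, traits that largely overlap. Late-numbered miRNAs, with numbers of 700 and above, were named after most of the abundant ones were known. Of 44 bright miRNAs that were late-numbered or star strands, 36 had ratios below 0, 5 above and 3 at 0, with a median of -0.23 (-0.47 to -0.19 in the other scalings). Of the 74 others, 14 had ratios below 0, 56 above and 4 at 0, with a median of 0.12. Of the 44, however, 9 were bright in Tlr3+/+ only, so their direction came with the brightness limit. Among the 35 late-numbered or star miRNAs bright on both arrays, 27 had ratios below 0 and 5 above, with a median of -0.29. Of the 69 others bright on both, 10 had ratios below 0 and 55 above, with a median of 0.13. Of the 15 lower in Tlr3-/- by at least 0.322, 12 were late-numbered or star, the exceptions being miR-494, miR-451 and miR-671-5p. All 12 and miR-494 were bright on both arrays. In non-treated intestine the median of the 44 was 0.

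Across the 95 bright miRNAs with a RefSeq sequence, the G + C content correlated with the ratio at 6 hr with a Pearson r of -0.64 and a rank correlation (Spearman) of -0.58, and with the ratio at 0 hr with 0.11 and 0.13. These are descriptions over miRNAs that share 2 arrays and are not independent replicates. In 6 other scalings the Pearson r at 6 hr was -0.69 to -0.64, and scalings that differ by a constant per array must share 1 value. Without late-numbered and star miRNAs the Pearson r at 6 hr was -0.22 over 67, few of which were rich in G and C. Length had an r of -0.04. Of 24 miRNAs with a G + C content of 60% or more, a limit chosen with the values known, 22 were late-numbered or star. Class and base composition therefore cannot be told apart here. Of the 24, 8 had passed the brightness limit through the Tlr3+/+ array only, where they are high. Of the other 16, bright on both arrays, 13 had ratios below 0, with a median of -0.33 at 6 hr and of 0.13 at 0 hr. Of the 68 below 60% that were bright on both, 50 had ratios above 0, with a median of 0.09 at 6 hr and of -0.04 at 0 hr. Over the 84 matched miRNAs bright on both the Pearson r at 6 hr was -0.67.

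The run GGGG, searched in the mature strand only and also chosen with the values known, was present in 15 of the 95 (15.8%), against 188 of all 1674 distinct RefSeq mouse mature miRNAs (11.2%). Of these, 5 were bright in Tlr3+/+ only, and the 10 bright on both arrays all had ratios below 0 at 6 hr, with a median of -0.39, against 0.05 at 0 hr. Among the sequences printed above it occurs in miR-762, miR-149*, miR-326*, miR-5126, miR-211* and miR-2861. Slide, labelling and genotype move together with this pattern, and their parts in it cannot be told apart.

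**Figure D4:**
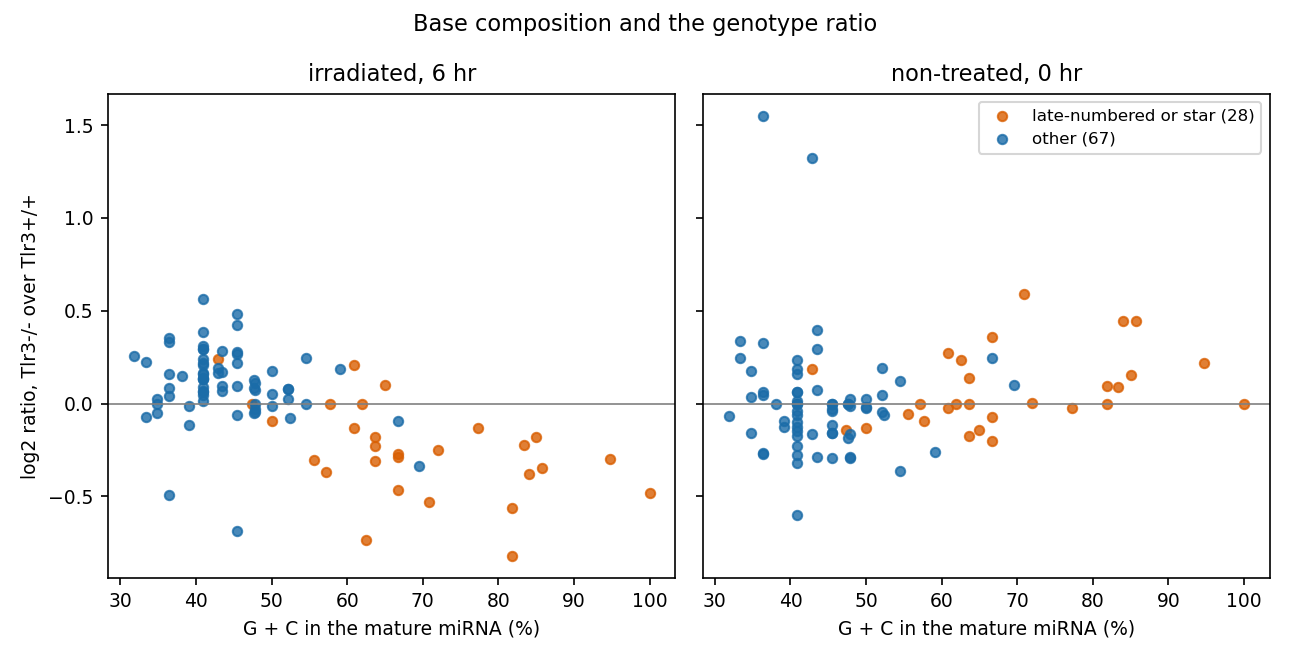
Log2 ratio of Tlr3-/- over Tlr3+/+ (vertical) against the percentage of G + C in the mature miRNA (horizontal) for the 95 bright miRNAs with a RefSeq sequence, in irradiated intestine at 6 hr (left) and non-treated intestine at 0 hr (right), 1 point per miRNA, late-numbered or star in orange and others in blue. The points slope downward at 6 hr (Pearson r -0.64) and not at 0 hr (0.11).

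The non-treated arrays, which shared 1 slide, were used to see whether the same miRNAs differed between the genotypes without irradiation. All 118 were detected on both. At the 0.322 limit, 9 of the 118 were higher in non-treated Tlr3-/- and 4 were lower, while over all 656 miRNAs detected on both arrays the share called was 1.37% higher and 0.762% (5 miRNAs) lower. Of the 118, 93 (78.8%) lay within 0.25 of 0. Over the 118 miRNAs the ratios at 6 hr and at 0 hr correlated with a Pearson r of -0.19 and a rank correlation of -0.14, with the same sign in 47, opposite signs in 51 and a 0 in 20. The times share no array, but all 4 arrays were normalized together. Of the 15 miRNAs lower in irradiated Tlr3-/- at that limit, only 2 were below 0 at 0 hr, 10 were above and 3 were at 0 in the main processing. Of those above, miR-762 (-0.02), miR-328* (-0.08), miR-3102* (-0.05) and miR-671-5p (-0.05) fell below 0 in another scaling. The 3 at 0 held equal ranks, and other scalings gave -0.14 to 0.12 for miR-149*, -0.13 to 0.14 for miR-5126 and -0.43 to 0 for miR-3968. Whether the ratios of the times differ could not be tested with 1 array per group.

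Set beside the non-treated sample of their own genotype, these 15 had a median log2 ratio of 6 hr over 0 hr of 0.27 in Tlr3-/-, where 12 lay above 0, and of 1.03 in Tlr3+/+, where 14 did. These ratios share the irradiated arrays with the comparison that chose the 15, so the gap between them is partly fixed by the choice. For miR-92b* the ratio of 6 hr over 0 hr was 1.09 in Tlr3-/- and 2.06 in Tlr3+/+, for miR-2861 1.20 in Tlr3-/- and 1.71 in Tlr3+/+, and for miR-762 0.27 in Tlr3-/- and 1.19 in Tlr3+/+. The 7 that were higher in irradiated Tlr3-/- at the 0.322 limit had a median of 0 in Tlr3-/-. In Tlr3+/+ it was -0.48, and all 7 ratios lay below 0 after normalization. Raw Tlr3+/+ values rose, however, for miR-26a (457 at 0 hr, 493 at 6 hr) and miR-720 (1738 and 1970.5), and fell for the others. This gap too is partly fixed by the choice of the 7. Among the 74 bright miRNAs neither late-numbered nor star, which hold 6 of the 7, the Tlr3+/+ median was -0.23 and the Tlr3-/- median -0.10. Of the 7, miR-21 had -0.23 in Tlr3-/- and -0.86 in Tlr3+/+, and let-7b had 0 in Tlr3-/- and -0.54 in Tlr3+/+. The plot of the 4 arrays shows raw values, to which the normalization behind these ratios was not applied.

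**Figure D5:**
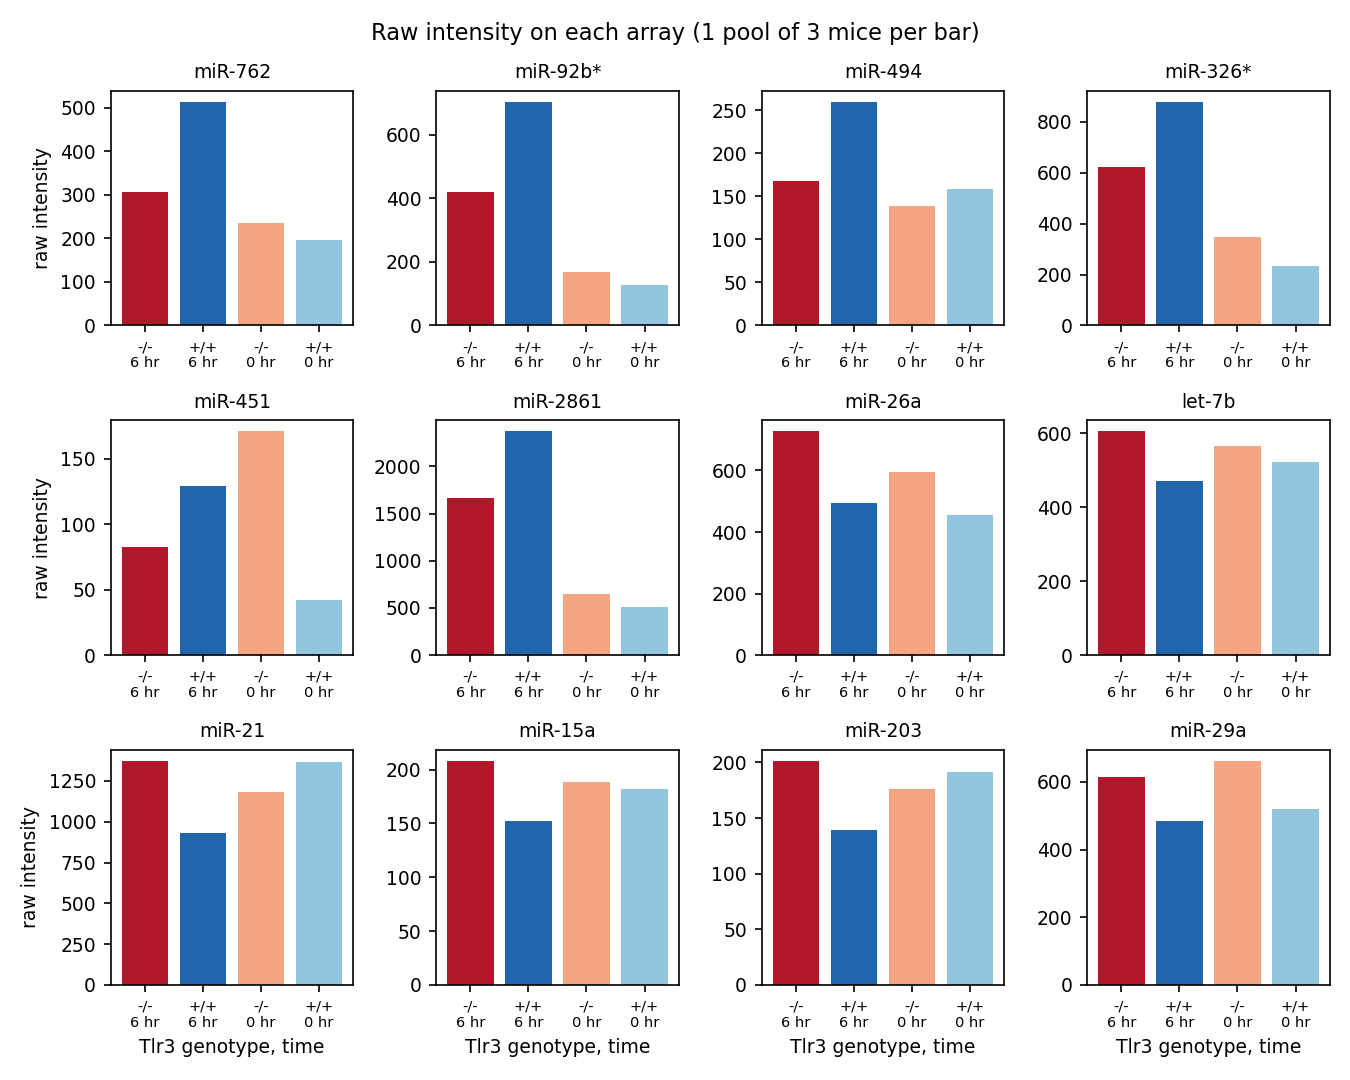
Raw intensity (vertical, from 0) on each of the 4 arrays for 12 miRNAs, with irradiated Tlr3-/- and Tlr3+/+ at 6 hr on the left and non-treated Tlr3-/- and Tlr3+/+ at 0 hr on the right of each panel, 1 bar per pool of 3 mice and no error bar. miR-762 and miR-92b* are highest in irradiated Tlr3+/+, while miR-21, miR-15a and miR-203 are lowest there.

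The brightness limit divided miRNAs of much the same signal. Just inside it were miR-146a at 0.24, miR-1247* at -0.29 and miR-744 at -0.18. Just outside were miR-3084 (86.0 in Tlr3-/- and 74.8 in Tlr3+/+, ratio 0.19), miR-375 of endocrine cells (86.7 and 74.8, ratio 0.19) and miR-5132 (74.0 and 77.4, ratio -0.04). The 14 miRNAs bright on 1 array only had ratios between -0.49 and 0.24, and as each passed through the array where it was high, their direction is no finding.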

How the data were processed

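Total RNA of 4 pools of mouse small intestine was measured on 4 miRNA arrays in 1 colour, 1 array per group, with groups taken from the sample titles. Per the file headers, the authors deposited for each array the raw intensity, a background-subtracted intensity and a normalized intensity of 3136 spots. In the deposited values the subtracted intensity equals the raw intensity minus the mean of the blanks (5% left out at each end), and the normalized intensity is that times 1 factor per array that sets its median to 25. The authors' series table holds the same normalized intensity within 0.005. The sources used here give neither the maker of the array nor the scanner or its software.

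Raw intensities were corrected with normexp on the blanks (limma 3.58.1, function nec, offset 50, R 4.3.3), quantile normalized over 1135 miRNA probes and put on the log2 scale. The offset shrinks ratios of dim probes. Each miRNA has 1 spot. With 1 array per group, miRNAs were counted by size (1.5-fold, also 2-fold and a log2 ratio of 0.322) and no p-value was computed. The steps were tested on 20 simulated sets, with 2-fold changes put into 12 bright miRNAs. The same 12 were changed in every set. All simulated arrays shared 1 mean profile with random noise and had no slide, labelling or pool effect. Of these changes 80.8% passed 1.5-fold, and 0 of the 106 unchanged bright miRNAs did. That 0 therefore does not say how many miRNAs pass 1.5-fold on the real arrays through slide, labelling or pool. The median recovered log2 size was 0.73, so a 2-fold change read as less than 2-fold at the median.

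Named were the 12 highest and 12 lowest ratios, the 10 brightest probes in irradiated Tlr3-/-, the 3 on each side of the brightness limit and members of fixed lists: let-7, miR-26, miR-29, miR-30, miR-15/16, miR-200, miR-17~92, miR-23/27/24, miR-10 with miR-99, miR-100 and miR-125, miR-103/107, enterocyte, other epithelium, smooth muscle, stroma and endothelium, leukocyte, red cell, p53-responsive, innate immunity, late-numbered (700 and above) and star strands, with markers of skeletal muscle, neuron, liver and pancreas. miR-2137, miR-671-5p, miR-2861 and miR-3960 complete a count or were chosen after their values were seen. Members and lists were chosen with earlier results of these data known. Array names were matched to RefSeq mature names, and a strand that was not certain stayed unmatched.

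Alternatives were scaling to the median, to the 75th percentile or to the spike controls, cyclic loess, quantile normalization of the compared arrays alone, the authors' normalized values, an offset of 16, no background correction, blank subtraction, other brightness limits and other size limits.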

Additional observations from a re-analysis of the deposited data

Results flagged for a closer look

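For 5 miRNAs the order of the genotypes turned between the times, with Tlr3-/- below Tlr3+/+ by a log2 ratio of at least 0.322 in irradiated intestine and above it by at least as much in non-treated intestine. The log2 ratio at 6 hr minus that at 0 hr was -2.04 for miR-451, -1.12 for miR-326*, -0.82 for miR-211* and for miR-3077*, and -0.79 for miR-2137. The limit at 0 hr was met in every scaling by miR-451 only, since in other scalings the ratio at 0 hr was as low as 0.27 for miR-326*, 0.14 for miR-211*, 0.14 for miR-3077* and 0.10 for miR-2137. With 1 array per group the difference was not tested. All but miR-451 are late-numbered or star strands, and at 6 hr the genotypes lay on different slides, whose part in it was not tested.

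A probe outside the mouse set, for a miRNA of mouse cytomegalovirus named mcmv-miR-M23-1-5p, was bright on all 4 arrays, with raw intensities of 250.4 in irradiated Tlr3-/- and 225 in irradiated Tlr3+/+, and 207 and 241 in the non-treated samples of the same genotypes. It was 1 of 39 viral probes, and whether its signal came from a virus or from another RNA was not tested.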

How the results depend on the processing

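The 24 miRNAs named at the ends of the distribution kept their sign in every alternative run, though 45 of their alternative values moved by more than the technical spread, and list medians changed sign in 10 alternatives. An offset of 16, no background correction and blank subtraction keep the ranks within each array, so they could not change the sign of a ratio. Of 483 alternative values in all, 407 moved by less than the technical spread or the limit set for counts. The count of miRNAs at least 1.5-fold higher in Tlr3-/- was 0, and became 1 with an offset of 16, without background correction and with blank subtraction, and 7 at a log2 limit of 0.322. The count at least 1.5-fold lower was 3, and became 9 with cyclic loess, 7 with spike scaling, 15 with the authors' normalized values, 5 with an offset of 16, 5 without background correction, 6 with blank subtraction, 15 at the 0.322 limit and 0 at 2-fold. The median ratio of the bright miRNAs at 0 hr was -0.19 with spike scaling. List medians at 6 hr that moved were enterocyte (0.30 with scaling to the median or the 75th percentile), smooth muscle (-0.021 with cyclic loess and -0.0031 with the authors' values), innate immunity (0.078 with cyclic loess and 0.074 with spike scaling), late-numbered (-0.48), star strands (-0.55) and both together (-0.47), the last 3 with the authors' values. The cause of these shifts was not tested, except that the lower size limit and the lower offset let more ratios pass by construction. At the 0.322 limit, alternatives chosen after seeing the data gave 3 to 19 higher and 15 to 33 lower. No paired analysis was possible because each group had 1 array and the labels give no replicate numbers, and for the same reason no replicate could be left out. Dim probes near the blanks limit what can be said of miRNAs such as miR-34a and miR-155.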
